A study of Mus musculus with 14 samples.

Results

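The 9 genes described here, H2-Aa, H2-Ab1, H2-Eb1, H2-DMa, H2-DMb1, H2-Oa, H2-Ob, Cd74 and Ciita, serve the presentation of antigen on MHC class II molecules. They were chosen by symbol, and all 9 were found among the 32589 features of the purchased sections and the 19465 features of the C1qa cross. Spatial transcriptomics with Visium probes was run on formalin-fixed, paraffin-embedded mouse tissue, 1 library per section, to map blood-forming organs over development and after loss of C1qa, a subunit of complement C1q that macrophages make. Of the 14 sections, 6 came from purchased wild-type C57BL/6 mice, 1 section for each group: fetal livers at E13.5 and E14.5, bone marrow at P8 and 89 weeks, an adult spleen, and the bone marrow of a 6-month mouse kept 5 days in 0.5 M EDTA. The other 8 came from a cross of C1qa heterozygous mice: E14.5 fetal livers of wild-type and C1qa knockout littermates, numbered 2 and 4 after the dam in either genotype, and spleens of either genotype, numbered 1 and 2 and aged 3 months by the labels. The knockout is a germline allele, the leg bones of the 89-week mouse were cut without decalcification, and 1 section stands for each animal.

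MHC class II molecules show peptides from engulfed material to CD4+ T cells. H2-Aa and H2-Ab1 encode the α and β chains of the I-A molecule, and H2-Eb1 encodes the β chain of I-E. Cd74, the invariant chain, holds the groove of a new class II molecule closed on its way to the endosome, where the DM heterodimer (H2-DMa, H2-DMb1) swaps the last piece of Cd74 for a peptide and the DO heterodimer (H2-Oa, H2-Ob) restrains DM. Ciita is the coactivator that turns on the whole set. In mice B cells, dendritic cells and activated macrophages carry class II, DO is best known from B cells, and the fetal liver holds few mature cells of these kinds.

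Levels are given as CPM, the UMIs of a gene over the kept spots scaled by all UMIs of those spots, where a kept spot lay in tissue and had 1000 or more detected genes. A spot covers several cells, and each gene was counted through its own probes, so that a level can be compared between sections of the same source but not between genes. Purchased and cross sections differ in feature table and background, and levels or ratios set across the 2 sources are descriptive only. Between 15 and 2320 spots passed per section, holding 37167 to 56182915 UMIs. Counts of C1qa were 1939, 1023, 4343 and 1135 in the 4 wild-type sections of the cross and 1 or 2 in each of the 4 knockouts. Marker sums set fetal livers and spleens apart. Summed CPM of 8 hepatocyte markers was between 6597 and 97969 in the fetal livers and between 6.34 and 54.7 in the spleens. For 12 B cell markers it was between 6225 and 8683 in the spleens and between 14.5 and 61.2 in the fetal livers. Spots with hepatocyte markers made up 29.7% of wild-type fetal liver 4 and 62.1% of knockout fetal liver 4, against 94.4% to 100% in the other livers. Whether those 2 sections hold tissue other than liver was not tested. The EDTA bone marrow kept 1.84% of its spots and enters no comparison.

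Class II levels were lowest in fetal liver, intermediate in bone marrow and highest in spleen. The 9 genes summed to 14.7 CPM at E13.5, 15.6 CPM at E14.5, 126 CPM in the P8 marrow, 3696 CPM in the 89-week marrow and 24873 CPM in the adult spleen of the purchased mice. The fetal livers of the cross held 46.1 and 27.5 CPM in the wild types and 32.7 and 58.0 CPM in the knockouts. The spleens of the cross held 20171 and 20848 CPM in the wild types and 24411 and 22496 CPM in the knockouts. No bone marrow or spleen overlapped any fetal liver in this sum, and without Cd74 the order of tissues was the same, from 9.26 CPM at E13.5 to 9331 CPM in the adult spleen.

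The RNAs of the 2 I-A chains and of the I-E β chain were at a few CPM or less in fetal liver. Protein was not measured, so these levels do not show which molecules reach the surface. H2-Ab1 was at 2.48 CPM at E13.5, 3.24 CPM at E14.5, 8.02 and 3.49 CPM in the wild-type livers of dams 2 and 4, 3.55 and 8.15 CPM in their knockout littermates, 15.3 CPM in the P8 marrow, 234 CPM in the 89-week marrow and 2495 CPM in the adult spleen. H2-Aa ran from 1.35 CPM at E14.5 to 3094 CPM in the adult spleen, with 8.37 CPM in the P8 and 194 CPM in the 89-week marrow. H2-Eb1 ran from 0.605 CPM at E14.5 to 1999 CPM in the adult spleen, with 5.23 and 197 CPM in the 2 marrows. In the purchased sections all 3 chains kept the same order of tissues. Over the livers of the cross H2-Eb1 ran from 1.73 to 5.89 CPM, so that knockout fetal liver 4 exceeded the P8 marrow, while H2-Aa and H2-Ab1 did not reach the P8 level in any liver. The background of unrelated probes, given below, had a 95th percentile of 5.77 CPM in knockout fetal liver 4 and 0.0910 CPM in the P8 marrow. With an interval of 4.78 to 7.17 CPM, H2-Eb1 in that liver cannot be told from background.

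Cd74 took the largest share of the class II counts in spleen and aged marrow. It stood at 5.40 CPM at E13.5, 5.41 CPM at E14.5, 57.1 CPM in the P8 marrow, 2860 CPM in the 89-week marrow and 15542 CPM in the adult spleen. Its share of the summed counts was 36.8% and 34.6% in the purchased fetal livers, 45.2% in the P8 marrow, 77.4% in the 89-week marrow and 62.5% in the adult spleen. In the cross it was between 15.6% and 37.1% in the fetal livers and between 62.0% and 66.3% in the spleens.

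In the purchased sections the peptide editors and Ciita followed the same order of tissues. H2-DMa was at 3.50, 3.67, 19.6, 41.1 and 447 CPM in the E13.5 liver, E14.5 liver, P8 marrow, 89-week marrow and adult spleen, and H2-DMb1 was at 0.548, 0.837, 12.2, 51.6 and 178 CPM in the same order. H2-Oa was at 0.261, 0.196, 1.32, 6.05 and 148 CPM, and H2-Ob at 0.157, 0.214, 6.05, 79.4 and 631 CPM. Ciita was at 0.209, 0.107, 1.14, 33.0 and 338 CPM. With the livers of the cross the order did not hold for Ciita, which stood between 1.39 and 9.22 CPM there, above the P8 marrow in all 4, or for H2-Oa, which exceeded the P8 marrow in both livers of dam 4 (1.77 and 3.98 CPM). The cross livers have another feature table and a higher background, given below, than the purchased P8 marrow. H2-DMb1 and its neighbour H2-DMb2 are close copies, and whether their probes tell them apart was not tested here.

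**Figure D1:**
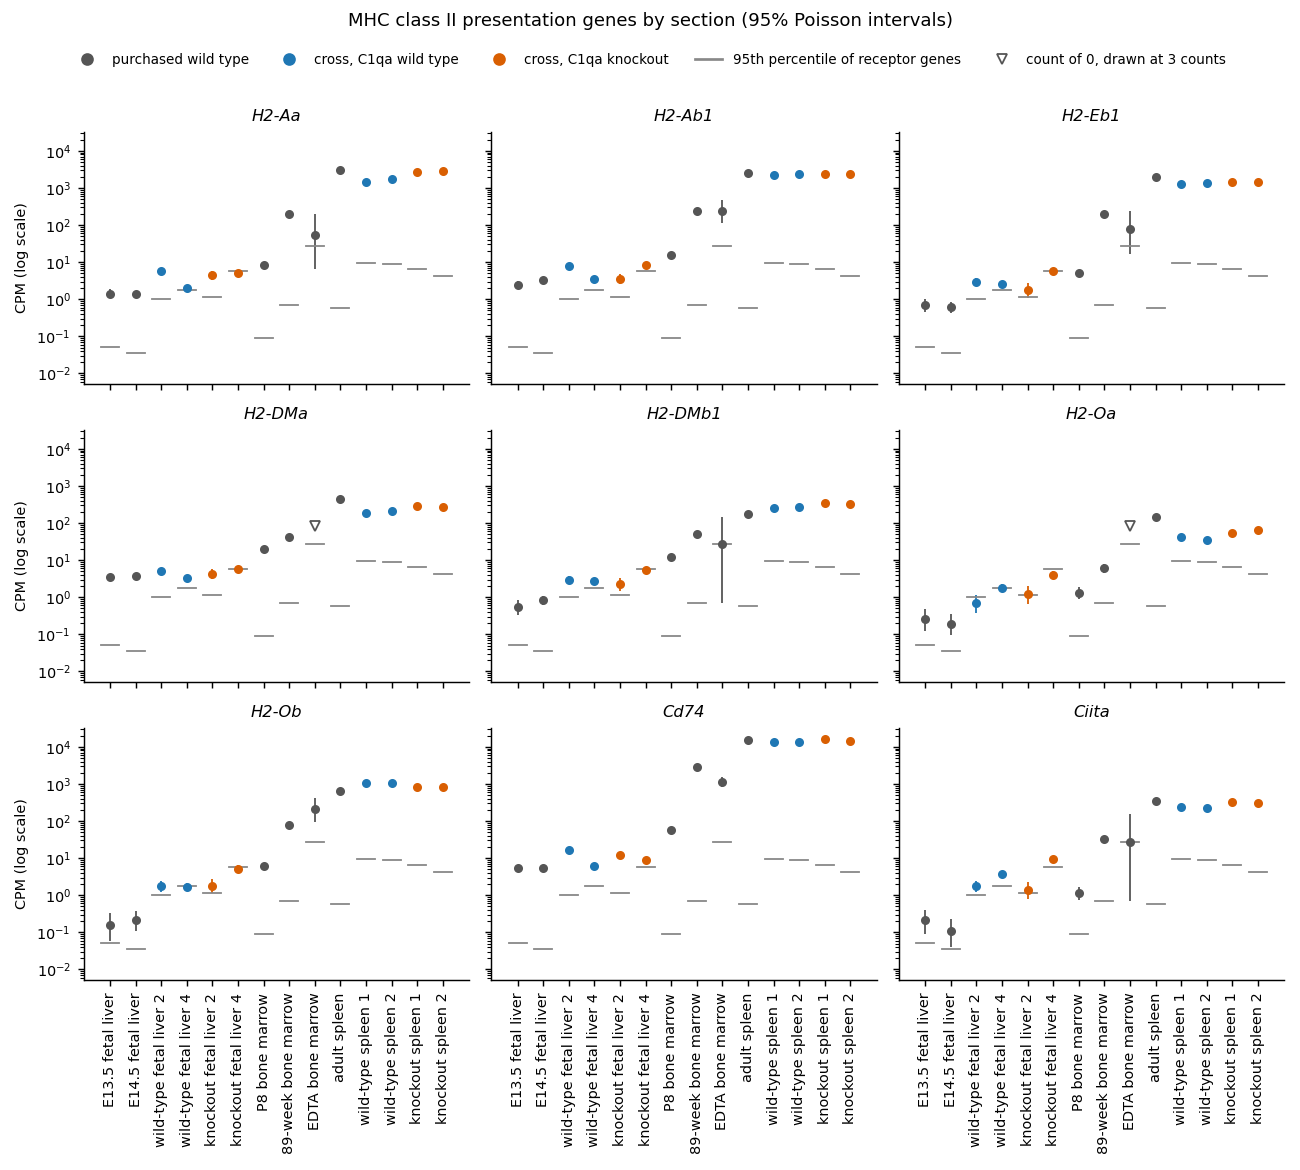
CPM of each of the 9 genes (y axis, log scale) in every section (x axis), grey for purchased wild types, blue for cross wild types and orange for C1qa knockouts, with 95% Poisson intervals; horizontal marks give the 95th percentile of 1178 olfactory and vomeronasal receptor genes in the same section, and open triangles stand for a count of 0 drawn at 3 counts. Cd74 is at 5.41 CPM in the E14.5 liver and at 15542 CPM in the adult spleen, while 4 genes in knockout fetal liver 4 lie at or below the receptor mark.

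How far fetal values stood above unspecific counts was read from 1178 olfactory and vomeronasal receptor genes, which these tissues are not known to use. The 95th percentile of that panel was 0.0522 CPM at E13.5, 0.0356 CPM at E14.5 and 0.0910 CPM in the P8 marrow, below all 9 genes. In the cross it was 0.990 CPM (wild type) and 1.13 CPM (knockout) in the livers of dam 2 and 1.77 and 5.77 CPM in those of dam 4. H2-Oa in wild-type fetal liver 2, H2-Oa and H2-Ob in wild-type fetal liver 4, and H2-Aa, H2-DMb1, H2-Oa and H2-Ob in knockout fetal liver 4 did not exceed it. In these sections the fetal values of those genes cannot be told from the background of unrelated probes, and both the panel and the class II sum were higher in the cross livers than in the purchased ones. H2-Eb1 and H2-DMa, both at 5.89 CPM in knockout fetal liver 4, stood just above its 5.77 CPM, and their interval (4.78 to 7.17 CPM) reached below it. In the spleens of the cross the percentile lay between 4.33 and 9.59 CPM, and all 9 genes were above it.

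Between the 2 purchased fetal livers, a day apart, the class II sum differed 1.07-fold (95% exact interval 0.958 to 1.19, counting error only, as for all intervals of counts here). H2-Ab1 stood 1.31-fold higher at E14.5 (1.01 to 1.69), H2-DMb1 1.53-fold (0.895 to 2.69) and Cd74 1.00-fold (0.837 to 1.20). None of the 9 genes was 2-fold higher or lower at E14.5, where 2.46% of 14491 genes were at least 2-fold higher and 5.61% at least 2-fold lower. With 1 section per group there is no replicate check on these or the next folds, and no p was computed.

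From E14.5 liver to P8 marrow the sum was 8.08-fold higher (7.49 to 8.73), against a median of 1.29-fold over all genes. All 9 genes were at least 2-fold higher, as were 35.8% of 15313 genes. H2-Ob had the largest of the 9 folds, 28.3 (15.7 to 56.2), followed by H2-DMb1 at 14.6 (10.7 to 20.3), and H2-Ab1 the smallest at 4.73 (3.94 to 5.70). The P8 marrow also held the highest sum of 6 early B cell markers, 103 CPM, against 2.97 CPM in the E14.5 liver.

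From P8 to 89-week marrow the sum was 29.3-fold higher (28.2 to 30.4), while the median over all genes was 0.823-fold. All 9 genes were at least 2-fold higher, against 16.1% of 14955 genes. Cd74 was 50.1-fold higher (47.4 to 53.1), H2-Eb1 37.6-fold (31.1 to 45.8), Ciita 29.0-fold (19.2 to 45.6) and H2-Aa 23.2-fold (19.9 to 27.1). H2-DMa differed least, 2.1-fold (1.82 to 2.43), and H2-DMb1 and H2-Oa were 4.23-fold and 4.58-fold higher, all below the folds of H2-Aa, H2-Ab1, H2-Eb1 and Cd74. B cell markers summed to 241 CPM at P8 and 846 CPM at 89 weeks, and monocyte markers to 136 and 1039 CPM. Spots with neutrophil markers were 303 of 1085 at P8 and 931 of 932 at 89 weeks, and neutrophil markers summed to 5744 and 27775 CPM. The class II sum was 173 CPM within the P8 neutrophil spots and 92.5 CPM in the other 782 P8 spots. Age, preparation of the bone, software version and the share of spots with neutrophil markers all differed between the 2 sections and cannot be told apart. Nor can fewer cells of a type be told from less RNA per cell.

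The adult spleen exceeded the 89-week marrow 6.73-fold in the sum (6.65 to 6.81) and the E14.5 liver 1592-fold (1490 to 1702). All 9 genes were at least 2-fold higher in both comparisons, where 43.5% of 14993 and 47.1% of 15391 genes were. Over the marrow, H2-Oa had the highest fold, 24.4 (18.5 to 32.9), and H2-DMb1 the lowest, 3.46 (3.12 to 3.83), while Cd74 was 5.43-fold higher (5.36 to 5.51). Over the fetal liver the folds ran from 122 for H2-DMa (106 to 141) to 3304 for H2-Eb1 (2364 to 4772). These comparisons share sections with each other, and their folds are not independent.

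The replicated sections of the cross allowed a test of the difference between tissues, made with edgeR on counts summed per section and adjusted over 19180 genes. All 9 genes were higher in spleen than in fetal liver (4 sections each), against 26.7% of all genes tested. H2-Eb1 stood between 1.73 and 5.89 CPM in the fetal livers and between 1318 and 1460 CPM in the spleens, a log2 difference of 8.09 (SE 0.43, adjusted p = 5.69e-05). Cd74 stood between 6.26 and 17.1 CPM in the livers and between 13379 and 16079 CPM in the spleens, a log2 difference of 9.43 (SE 0.94, adjusted p = 0.000300). For none of the 9 genes did the tissues overlap.

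Among the editors H2-Ob differed most, with 1.67 to 5.23 CPM in the fetal livers against 815 to 1083 CPM in the spleens, a log2 difference of 7.92 (SE 0.37, adjusted p = 4.35e-05). H2-Oa, its partner, differed least of the 9, with 0.693 to 3.98 CPM against 35.7 to 64.0 CPM and a log2 difference of 4.17 (SE 0.28, adjusted p = 8.97e-05). The log2 differences of H2-Aa and H2-Ab1 were 8.08 and 7.91, those of H2-DMa and H2-DMb1 4.93 and 5.80, and that of Ciita 5.63, with adjusted p between 5.06e-05 and 0.000172. The median was 7.91 for the 9 genes and 0.10 over all genes tested. Since several fetal values sit at the receptor panel, the differences of H2-Oa, H2-Ob, H2-DMb1 and H2-Aa are measured against background in part of the livers.

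Other genes of the pathway moved less evenly between tissues. The class II loci H2-DMb2 and H2-Eb2 were both higher in spleen, by 7.83 and 8.06 on the log2 scale (edgeR adjusted p = 4.35e-05 for each). Of 6 transcription factor genes that assemble on class II promoters, Rfx5 was higher (1.94, SE 0.24), Nfyb and Nfya were lower (-2.24, SE 0.28, and -0.65, SE 0.22), and 3 did not pass. Of 7 processing genes, Ctss, the protease that trims Cd74 in B cells and dendritic cells, was 3.27 higher (SE 0.61), and March1, a ligase that takes class II off the surface, was 4.79 higher (SE 0.59), while Ctsl and March8 were lower. Among 14 class I genes 10 were higher and 2 lower. All 12 B cell, 10 dendritic cell and 10 T cell markers were higher in spleen as well, and their part in the class II difference was not tested.

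Promoters are shown for the members that carried matches to the boxes that class II genes are known to share, because the 9 genes moved together between tissues. RefSeq (GRCm38.p6) held promoter windows of 250 bases before to 50 after the start for 6 of the 9, H2-Aa, H2-Eb1, H2-DMa, H2-DMb1, H2-Oa and H2-Ob, and not for H2-Ab1, Cd74 and Ciita. The search covered the Y box core ATTGG, the longer form CTGATTGG that contains it, and the X box written as CCNAGNNAC, on both strands. The 120 bases before the start of 5 genes, read along the gene, were as follows, with capitals for ATTGG and CCNAGNNAC on the gene strand.
H2-Oa, chr17:34092259-34092378, plus strand: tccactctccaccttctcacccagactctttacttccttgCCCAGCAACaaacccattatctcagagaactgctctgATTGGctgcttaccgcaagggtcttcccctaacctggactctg
H2-DMb1, chr17:34153071-34153190, plus strand: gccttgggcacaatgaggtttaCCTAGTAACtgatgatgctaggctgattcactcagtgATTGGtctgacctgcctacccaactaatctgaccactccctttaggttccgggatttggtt
H2-Ob, chr17:34238785-34238904, plus strand: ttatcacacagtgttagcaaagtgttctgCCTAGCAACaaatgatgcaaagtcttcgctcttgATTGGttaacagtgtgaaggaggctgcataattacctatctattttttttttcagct
H2-Aa, chr17:34287824-34287943, minus strand: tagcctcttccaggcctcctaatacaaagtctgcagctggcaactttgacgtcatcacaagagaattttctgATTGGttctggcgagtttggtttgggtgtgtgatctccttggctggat
H2-Eb1, chr17:34305747-34305866, plus strand: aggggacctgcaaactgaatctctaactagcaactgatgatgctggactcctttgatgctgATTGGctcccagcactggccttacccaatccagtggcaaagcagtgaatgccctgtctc

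In each of these 5 windows an ATTGG on the gene strand began between 43 and 61 bases before the start, and in H2-Oa, H2-Aa and H2-Eb1 it was part of CTGATTGG. H2-Eb1 also held ATTGG on the opposite strand 35 bases before the start, left in lower case. The X box pattern lay 37 bases ahead of it in H2-Oa and H2-DMb1 and 34 bases ahead in H2-Ob. In H2-Aa the nearest match began 180 bases before the start, outside the stretch printed, and in H2-Eb1 the pattern had no match. H2-DMa had 2 windows with no match in these 120 bases. Over 32851 RefSeq windows ATTGG occurred in 37.4%, CTGATTGG in 4.10% and CCNAGNNAC in 17.3%, and an X match 34 to 37 bases before ATTGG, a spacing taken from the matches above, occurred in 12 windows (0.0365%), 3 of them H2-Oa, H2-Ob and H2-DMb1. The members with both pattern matches at this spacing had tissue differences of 4.17, 5.80 and 7.92 on the log2 scale. H2-Aa and H2-Eb1, without such a match, had 8.08 and 8.09. Only exact matches to the written pattern were counted. Whether H2-Aa and H2-Eb1 hold an X box that departs from it was not tested, and no link between boxes and tissue differences was tested. The H2 genes sit between position 34092379 (H2-Oa) and 34316674 (H2-Eb1) of chromosome 17, whereas Ciita lies on chromosome 16 (10480014 to 10531064) and Cd74 on chromosome 18 (60803849 to 60812652).

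Whether loss of C1qa went with a class II difference was asked within each tissue, with 2 sections per genotype. In fetal liver it was not detectable. The edgeR test called 0 of the 9 genes and 0% of 18986 genes, 0 of the 9 and 138 of all genes had an unadjusted p under 0.05, and DESeq2 called 0 of the 9 and 12 of all genes. With no gene called, edgeR also missed C1qa, at 1939 and 1023 counts in the wild types and 1 in each knockout. Its lack of calls therefore does not show that class II was unchanged. Cd74 was at 17.1 and 6.26 CPM in the wild types and 12.1 and 9.04 CPM in the knockouts, a log2 difference of -0.46 with an approximate 95% interval from the SE of -2.12 to 1.20. H2-Ab1 was at 8.02 and 3.49 against 3.55 and 8.15 CPM, a log2 difference of -0.53 (-2.05 to 1.00). Both groups overlapped, and the intervals of this fit, which leaves out the litters, allow differences of several fold either way. With the litter as a block the intervals were -0.88 to 0.48 for Cd74 and -1.06 to 0.76 for H2-Ab1. The widest of the 9 was that of H2-Oa, -0.77 to 2.34.

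Of the 9, Ciita and H2-Oa were higher in the livers of dam 4 than of dam 2 in both genotypes. Ciita was at 1.73 and 3.79 CPM in wild-type livers 2 and 4 and at 1.39 and 9.22 CPM in knockout livers 2 and 4, and H2-Oa at 0.693 and 1.77 against 1.21 and 3.98 CPM. H2-Ob, at 1.78 and 1.67 against 1.82 and 5.23 CPM, was the only member with both knockouts above both wild types, as were 7.46% of all genes, and none had both below, against 2.45% of all genes. From dam 2 to dam 4 the receptor panel median also rose, from 0.495 to 1.01 CPM in wild types and from 0.519 to 3.57 CPM in knockouts. H2-Oa in wild-type livers 2 and 4 and knockout liver 4, and H2-Ob in both livers of dam 4, did not exceed the panel's 95th percentile. These patterns of H2-Oa and H2-Ob cannot be told from background. Ciita exceeded the percentile in each of these livers but rose from dam 2 to dam 4 as the panel did. Whether its rise went beyond that of the background was not tested. Spots with hepatocyte markers made up 94.4% and 96.6% of litter 2 sections and 29.7% and 62.1% of litter 4 sections. With the litter as a block, the test called 157 genes and again 0 of the 9, whose estimates ran from -0.20 for Cd74 to 0.79 for H2-Oa on the log2 scale, and no member had an unadjusted p under 0.05.

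In spleen 5 of the 9 genes were higher in the C1qa knockouts than in the wild types, where 13.8% of 18895 genes were, and 0 were lower, where 6.79% were. The 5 were one chain of I-A, both DM genes, one chain of DO and the coactivator. H2-Aa was at 1477 and 1697 CPM in the wild types and at 2646 and 2854 CPM in the knockouts, a log2 difference of 1.06 (SE 0.21, adjusted p = 0.00223). H2-Oa was at 41.5 and 35.7 against 55.0 and 64.0 CPM, a log2 difference of 0.88 (SE 0.18, adjusted p = 0.00261). Ciita was at 239 and 221 against 333 and 315 CPM, a log2 difference of 0.75 (SE 0.18, adjusted p = 0.00632). In each of the 3 both knockouts lay above both wild types.

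The DM genes differed by about as much as Ciita. H2-DMa was at 191 and 216 CPM in the wild types and 284 and 271 CPM in the knockouts (log2 difference 0.71, SE 0.17, adjusted p = 0.00801), and H2-DMb1 at 252 and 264 against 346 and 334 CPM (0.66, SE 0.18, adjusted p = 0.0144). The other members did not pass the test. Cd74 was at 13379 and 13655 against 16079 and 13947.5 CPM (0.41, interval -0.01 to 0.82, adjusted p = 0.152), H2-Eb1 at 1318 and 1345 against 1441 and 1460 CPM (0.38, adjusted p = 0.163), and H2-Ab1 at 2191 and 2333 against 2408 and 2437 CPM (0.36, adjusted p = 0.196). H2-Ob, at 1083 and 1082 against 819 and 815 CPM, was the one member with both knockouts below both wild types in CPM, as were 51.5% of all genes, and its fitted log2 difference was -0.15 (interval -0.53 to 0.24, adjusted p = 0.579). The other 8 had both knockouts above both wild types, against 18.8% of all genes.

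**Figure D2:**
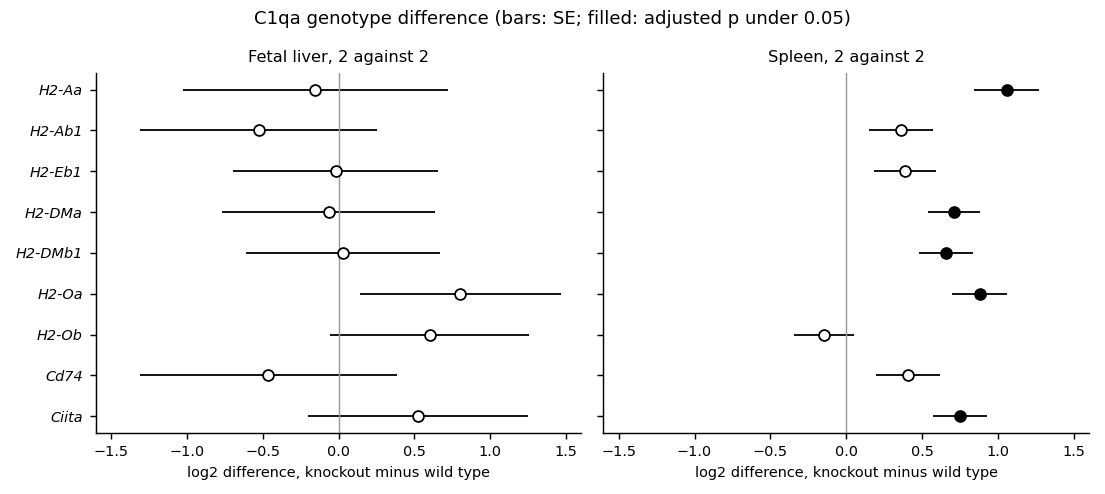
Log2 difference of knockout minus wild type (x axis) for the 9 genes in fetal liver (left) and spleen (right), 2 sections per genotype, with edgeR SEs as bars and filled points where the adjusted p was under 0.05. In spleen 8 of 9 points lie above 0 and 5 are filled, from 0.66 for H2-DMb1 to 1.06 for H2-Aa, and in fetal liver none is filled and the SEs run from 0.64 to 0.87.

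The spleen calls depended on the scaling and on 1 section. Without knockout spleen 2, edgeR called 0 of the 9 and 240 of all genes, although 5 of the 9 kept an unadjusted p under 0.05 (adjusted p between 0.160 and 0.292), and with upper-quartile factors H2-DMa and H2-DMb1 were no longer called. The median of the 9 was 0.66 against -0.08 over all genes with TMM factors and 0.37 against -0.37 with upper-quartile factors.

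Several marker sums, though not the erythroid one, separated the genotypes in these 4 spleens. Summed CPM of 8 pancreas acinar markers was 57.8 and 859 in the wild types and 3504 and 24411 in the knockouts, and of 8 neutrophil markers 662 and 593 against 73.5 and 131, with no marker of either list at 0 in these 4 sections. Erythroid markers summed to 42108 and 10096 against 5512 and 13704 CPM, so that the genotypes overlapped, and B cell markers to 7235 and 6225 against 8683 and 7432 CPM. Without the spots that held pancreas, edgeR called the same number of members, 5. When each spleen was split into tertiles of spots by their share of B cell marker UMIs, it called 5 in the B-cell-rich tertile, with H2-Aa at 0.86 (SE 0.15), and 4 in the B-cell-poor tertile, with H2-Aa at 1.45 (SE 0.40) and H2-DMb1 at 0.80 (adjusted p = 0.0506). The part of the remaining composition in the genotype difference was not tested.

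Partners of the pathway are given from lists of pathway genes, in the same spleen test. There 13.8% of 18895 genes were higher in the knockouts and 6.79% lower. The values come from the fit with all kept spots, those that held pancreas included. The part of pancreas in these partner differences was not tested. Of 6 transcription factor genes 4 were higher in the knockouts and none lower, Nfyb by 1.49 (SE 0.21), Nfya by 1.06 (SE 0.19), Rfx5 by 0.60 (SE 0.18) and Creb1 by 0.51 (SE 0.17). Of the other class II loci H2-DMb2 was higher (0.60, SE 0.20, adjusted p = 0.0431) and H2-Eb2 did not pass (-0.20, SE 0.16). Of 6 co-stimulation genes, whose products give the second signal to T cells, 4 were higher, Cd86 by 1.72 (SE 0.24), Cd80 by 0.94 (SE 0.20), Cd40 by 0.87 (SE 0.16) and Cd274 by 0.52 (SE 0.17). Of 14 class I genes 5 were higher and none lower, led by the chaperone Canx by 1.11 (SE 0.18) and the peptide transporter Tap1 by 0.89 (SE 0.20).

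Among 7 processing genes March8 was lower by a log2 difference of -1.29 (SE 0.26), March1 was higher by 0.52 (SE 0.18), and the other 5 did not pass, with the proteases Ctsd at 0.35 (SE 0.20) and Lgmn at 0.27 (SE 0.19). Of 9 interferon-γ response genes Gbp2 alone passed (0.71, SE 0.23), and 4 had an unadjusted p under 0.05. Among markers, 4 of 12 B cell genes were higher, led by the complement receptor Cr2 of follicular dendritic cells and B cells (1.47, SE 0.26), and 5 of 10 dendritic cell genes, led by Siglech (0.73, SE 0.18). Macrophage markers split into 4 higher and 1 lower of 10. All 8 pancreas markers were higher, all 8 neutrophil and 7 of 9 erythroid markers were lower, and 0 of 5 monocyte markers passed (2 at an unadjusted p under 0.05). The summed erythroid CPM nevertheless overlapped between the genotypes, as given above.

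The ratio between members sets scaling and depth aside, since both counts come from the same spots. H2-Aa counts per H2-Ab1 count were 0.674 (95% exact binomial interval 0.664 to 0.684) and 0.728 (0.706 to 0.750) in the wild-type spleens and 1.10 (1.08 to 1.12) and 1.17 (1.16 to 1.19) in the knockouts. H2-Ob counts per H2-Ab1 count were 0.494 and 0.464 in the wild types and 0.340 and 0.334 in the knockouts. Genotypes did not overlap in either ratio, but 2 against 2 sections cannot reach an exact permutation p below 0.333. The purchased wild-type spleen had 1.24 H2-Aa per H2-Ab1 and 0.253 H2-Ob per H2-Ab1, so that in both ratios this wild type lay beyond the knockouts and away from the wild types of the cross. The distance between the 2 sources of wild types was therefore as large as that between genotypes, and source, batch, feature table and age cannot be told apart.

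Both ratios kept the order of the genotypes in B-cell-rich and B-cell-poor spots. In the B-cell-rich tertile H2-Aa per H2-Ab1 was 0.725 and 0.761 in the wild types and 1.10 and 1.17 in the knockouts, and in the B-cell-poor tertile 0.555 and 0.674 against 1.08 and 1.16. H2-Ob per H2-Ab1 was 0.523 and 0.547 against 0.376 and 0.374 in the B-cell-rich tertile and 0.448 and 0.364 against 0.277 and 0.249 in the B-cell-poor tertile. In the fetal livers H2-Aa per H2-Ab1 was 0.735 and 0.572 in the wild types and 1.24 and 0.628 in the knockouts, with an interval of 0.808 to 1.92 around the highest value, and the genotypes overlapped.

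**Figure D3:**
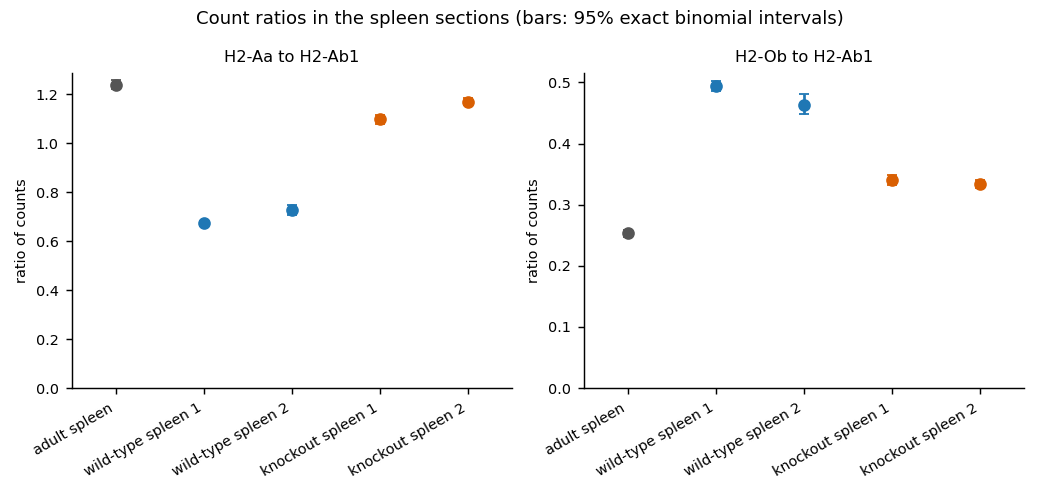
Ratio of H2-Aa to H2-Ab1 counts (left) and of H2-Ob to H2-Ab1 counts (right) in the 5 spleen sections (x axis), with 95% exact binomial intervals. The cross wild types sit at 0.674 and 0.728 on the left, the knockouts at 1.10 and 1.17 and the purchased spleen at 1.24, and the order is turned on the right.

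The genotype difference was not shown to differ between tissues. The edgeR interaction test over the 8 cross sections called 0 of the 9 and 0% of 19180 genes, while 2018 genes, 0 of the 9 among them, had an unadjusted p under 0.05 and DESeq2 called 8 genes and 0 of the 9. The estimate for H2-Aa, spleen minus fetal liver, was 1.18 on the log2 scale (SE 1.02, adjusted p = 0.597), and that for H2-Ob -0.77 (SE 0.56, adjusted p = 0.540). With a litter term it called 1409 genes and 0 of the 9, and H2-Ob was at -0.90 (SE 0.43, adjusted p = 0.158). In the 8-section fit the genotype difference in spleen itself passed for 0 of the 9 (1 at an unadjusted p under 0.05), and for H2-Aa and H2-Oa once a litter term was added.

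Class II counts were spread over nearly every spot of the spleens. The sum per spot had a 10th percentile, median and 90th percentile of 16697, 24664 and 31772 CPM in the adult spleen, 7766, 20598 and 28999 CPM in wild-type spleen 1, 11821, 21277 and 29612 CPM in wild-type spleen 2, 16341, 25235 and 31437 CPM in knockout spleen 1, and 14397, 24438 and 30718 CPM in knockout spleen 2. Wild-type spleen 1 had the widest range, with low spots along its rim. At an equal 2000 UMIs per spot, between 98.8% and 100% of spleen spots and 99.6% of 89-week marrow spots would hold a UMI of the 9 genes, against 19.2% in the P8 marrow, 3.33% in the E14.5 liver and between 5.64% and 11.7% in the livers of the cross. Without thinning, the P8 and E14.5 shares were 65.3% and 52.5%. In the 89-week marrow the percentiles were 2095, 3372 and 5363 CPM.

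**Figure D4:**
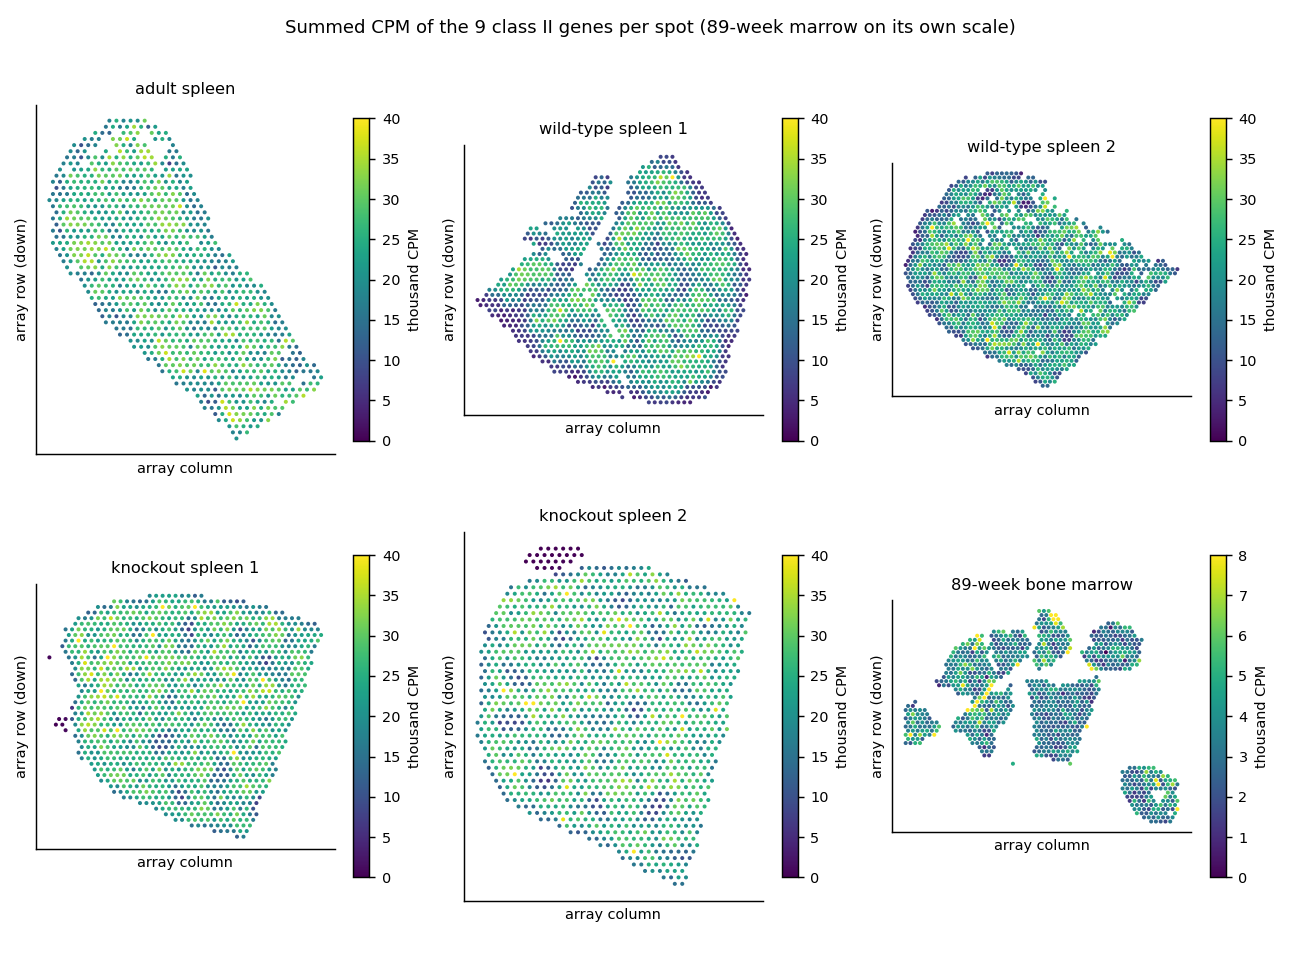
Summed CPM of the 9 genes in each passing spot, drawn at its array row (y axis) and column (x axis), in the 5 spleens on one colour scale and in the 89-week marrow on its own. Spleen medians lie between 20598 and 25235 CPM, a detached patch beside knockout spleen 2 is near 0, and the marrow median is 3372 CPM.

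Within each spleen the tertile of spots richest in B cell markers held more class II than the tertile poorest in them. From the poorest to the richest tertile the sum went from 18610 to 29798 CPM in the adult spleen, from 11259 to 26866 CPM in wild-type spleen 1, from 15615 to 25970 CPM in wild-type spleen 2, from 19491 to 28855 CPM in knockout spleen 1 and from 15542 to 28461 CPM in knockout spleen 2. The log2 ratio was 0.82 ± 0.27 (SD, n = 5), above 0 in 5 of 5 sections (two-sided exact sign-flip permutation p = 0.0625, the smallest that 5 sections allow). B cell markers themselves, which chose the spots, differed by 1.48 to 1.95.

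Every member was higher in the B-cell-rich tertile in 5 of 5 spleens. The log2 ratios were 0.90 to 1.45 for H2-Ob and 0.87 to 1.31 for H2-Oa, while H2-DMb1 ran from 0.44 to 1.05, H2-Eb1 from 0.40 to 1.13 and Cd74 from 0.59 to 1.22. Knockout spleen 1 had the lowest ratio for 8 of the 9 genes (not H2-DMb1) and wild-type spleen 1 the highest for 8 of the 9 (not H2-Oa). The difference between members was not tested.

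Per B cell marker count, the class II sum did not separate the genotypes. Cd74, which the spleen test did not call, made up 62.0% to 66.3% of that sum. The ratio therefore says little about the called members, which were not set against B cell markers singly. The summed CPM of the 9 genes was 2.79 and 3.35 times that of the 12 B cell markers in the wild types and 2.81 and 3.03 times in the knockouts, a log2 difference of -0.07 (exact permutation p = 1, where 2 against 2 cannot go below 0.333). The groups overlapped, and the pooled SD was 0.14 on the log2 scale.

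Spots sorted by other marker lists showed other patterns. In wild-type spleen 1 the class II sum was lower in the tertile richest in erythroid markers (log2 ratio -1.30) and in macrophage markers (-0.76). Over the other 4 spleens the erythroid value ran from -0.44 to 0.22 and the macrophage value from -0.46 to 0.01. Dendritic cell markers, between -0.20 and 0.07 in the spleens, sorted spots into tertiles whose class II sums differed little. The upper ends 0.22, 0.01 and 0.07 all came from knockout spleen 2. Over the spots of that section, Spearman rank correlations of class II with these lists were negative, as in the other spleens. They were -0.03 for erythroid, -0.25 for macrophage and -0.13 for dendritic cell markers. In wild-type spleen 2, 44.7% of spots held no dendritic cell marker UMI, so that its low tertile for that list is drawn from tied spots. In the 89-week marrow the ratios were 0.56 for B cell, 0.37 for T cell and -0.47 for erythroid markers. In the P8 marrow they were 1.03 for erythroid, 0.97 for neutrophil and 0.89 for monocyte markers and -0.63 for plasma cell markers. Of the 1085 P8 spots 303 were neutrophil spots, and the part of uneven marrow content in these P8 ratios was not tested. There 96.2% of spots held no hepatocyte marker UMI and between 55.6% and 62.2% none of the early B, T or dendritic cell lists, so that the low tertile of these lists is an arbitrary part of tied spots. The E14.5 liver had -1.0 for hepatocyte and 0.42 for monocyte markers on a sum of 15.6 CPM, where 406 of 854 spots held no class II UMI. Spots of 1 section are not replicates, and these ratios carry no test.

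**Figure D5:**
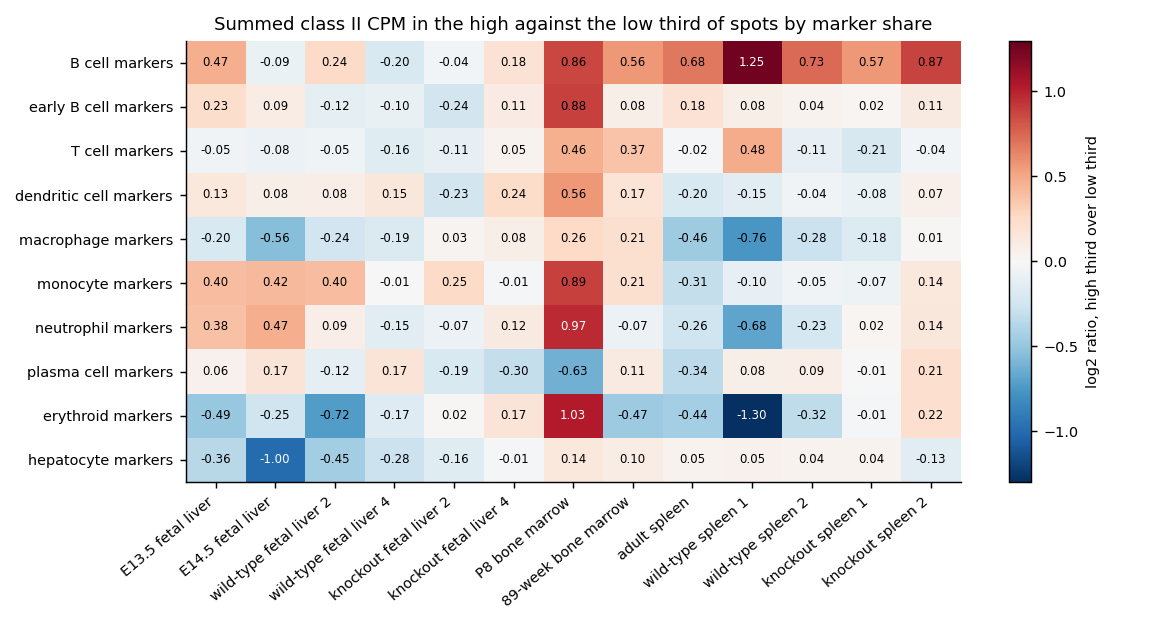
Log2 ratio of the summed class II CPM in the tertile of spots highest in a marker list over the tertile lowest in it, for 10 lists (rows) and 13 sections (columns); red is above 0 and blue below. The B cell row is above 0 in all 5 spleens (0.57 to 1.25) and in both marrows shown (0.86 and 0.56), and in the fetal livers it runs from -0.20 to 0.47; where most spots hold no marker UMI, as for hepatocyte markers in marrow, the low tertile is drawn from tied spots.

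The genes most like the members in level across 13 sections, by Pearson r with the mean log2(CPM + 1) of the 9, were Ighd (0.999), H2-M3 (0.998), Cd22 (0.998), H2-DMb2 (0.998) and Ms4a1 (0.997), out of 12772 genes compared. Ighd, Cd22 and Ms4a1 are B cell genes, and H2-DMb2 and H2-M3 belong to the MHC. Over the 8 cross sections they were Zfp366 (1.00), Ighd (1.00), Cytip (0.999), H2-DMb2 (0.999) and Capg (0.999). The spleens stand far from the fetal livers, with the 89-week marrow between them, and the points share libraries and depth, so that these values describe the contrast between tissues. Ighd ran from 0.157 to 1531 CPM and Zfp366, a gene of dendritic cells, from 4.17 to 41.2 CPM over these sections.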

How the data were processed

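Visium libraries of 14 mouse sections were analysed. The authors deposited raw UMI counts per gene and spot, made with 10x Genomics pipelines that per the file headers were not of one version (build mm10 and Space Ranger per the submitters' processing notes), without normalization. The deposited barcode, feature and spot position tables hold other values, namely names and array positions. In-tissue spots with at least 1000 genes were kept and their counts summed per section.

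Comparisons used the edgeR 4.0.16 quasi-likelihood test (TMM, filterByExpr, limma 3.58.1, R 4.3.3) with Benjamini-Hochberg adjustment over all genes and a threshold of 0.05, and DESeq2 1.42.0 as an alternative. Purchased and cross sections differ in mice, feature tables (304 purchased features are marked deprecated) and processing, and no p was computed between them. Where nothing names separate animals, p-values measure the spread between sections.

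The members and lists were chosen with earlier results of these data known. All members were named in every section, and of other lists at most 5 genes by smallest adjusted p. Fetal liver numbers name litters in the study legends, and the deviations of same-numbered sections from their genotype means correlated at 0.652 over 18986 genes, so that these numbers pair the samples. Spleen numbers share a number only. The cut-offs for marker spots were 0.5% of UMIs, and thinning went to 2000 UMIs.

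The tests were run on simulated counts at a dispersion of 0.02 and 0.2. The spleen genotype test on 18862 genes recovered 66% of 2-fold and 100% of 4-fold changes at 0.02, and on 18837 genes at 0.2 it recovered 0%. The fetal liver genotype test recovered 0% and 1% at 0.2. Measured common dispersions were 0.0245 in spleen and 0.263 in fetal liver, so that the fetal liver test had little power. Intervals of counts cover counting error only.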

Additional observations from a re-analysis of the deposited data

Results flagged for a closer look

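Class II counts were also found in spots marked as lying off the tissue, which no comparison uses. The 9 genes summed to 18.9 CPM over 4138 such spots of the E14.5 fetal liver, 13.5 CPM over 4501 of the E13.5 fetal liver, 140 CPM over 3897 of the P8 bone marrow, 3737 CPM over 4058 of the 89-week bone marrow, 22905 CPM over 3954 of the adult spleen and 1682 CPM over 4053 of the EDTA bone marrow. Off-tissue CPM was between 0.921 and 1.21 times the in-tissue CPM of the same section, so that the order of sections was the same on and off tissue. The median off-tissue spot held between 3 and 2598 UMIs. The origin of these counts was not tested.

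The EDTA-decalcified bone marrow, left out of every comparison, held class II counts in its 15 kept spots. There were 43 counts of Cd74, 9 of H2-Ab1, 8 of H2-Ob, 3 of H2-Eb1, 2 of H2-Aa and 1 each of H2-DMb1 and Ciita among 37167 UMIs, and 0 of H2-DMa and H2-Oa, which allows up to 80.7 CPM. The sum of 67 counts equals 1803 CPM (exact Poisson interval 1397 to 2289), between the P8 and the 89-week marrow.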

How the results depend on the processing

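All 14 alternatives of the tissue difference called all 9 genes, while the number of all genes called, 10216, ran from 5589 to 12043 when 1 section was left out. In fetal liver and in the test of the difference between tissues, 0 of the 9 were called under every alternative run.

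The spleen genotype result moved most. The test called 5 of the 9 members, 3 with upper-quartile factors, 0 in the joint fit of 8 sections, 2 when a litter term, added after seeing the data, entered that fit, and between 0 (without knockout spleen 2) and 6 when 1 section was left out. DESeq2 called 6. The causes were not tested. Over all genes it called 3886 (67.0% higher in the knockouts), 5597 with upper-quartile factors (21.4% higher), 2434 after thinning, 1972 and 2404 in B-cell-rich and B-cell-poor spots, 0 and 1247 in the joint fits and between 240 and 4972 without 1 section. H2-Aa and H2-Oa were called in 13 of 15 alternatives, Ciita in 12, H2-DMa in 11, H2-DMb1 in 9 and Cd74 in 2.

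With the litters as a replicate block the fetal liver test called 157 genes and 0 members, and the interaction test 1409 genes and 0 members. Spleen sections share only a number (correlation of deviations 0.0394), and a replicate block called 5 members and 4968 genes. In fetal liver the test called 1 gene in hepatocyte spots, 27 there with the block (added after seeing the data), and 109 and 103 genes without wild-type fetal liver 2 and 4. Without knockout fetal liver 4 the interaction test called 2 genes.

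The log2 class II to B cell marker ratio between genotypes, -0.0669, was 0.000845 with 4 B cell genes and ran from -0.199 to 0.0654 without 1 section. The ratio of B-cell-rich to B-cell-poor spots stayed between 0.713 and 0.975. Summed levels were 173 CPM in neutrophil spots of the P8 marrow, 25195 CPM in the adult spleen without deprecated features, and over all in-tissue spots 1318 CPM in the EDTA marrow, 19912 CPM in wild-type spleen 2 and 23773 CPM in knockout spleen 1. With 2 sections per genotype and low counts, differences of several fold in fetal liver could be missed.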
